A study of Mus musculus with 8 samples.

Results

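Glycogen is the branched glucose store of animal cells, and 9 genes that build it, break it down or steer either process are described here in mouse melanoma: Gyg, Ugp2, Gys1, Gbe1, Pygl, Pygb, Phka1, Ppp1r3b and Ppp1r3c. They are 9 of the 22836 genes measured, each on 1 probe set whose annotation, as far as it is given, names that gene alone. They were selected on the contrast of the treatments, since Gys1 had the smallest p-value of all genes with a higher signal after Ang2 blockade, so differences between the treatment groups are given below as a description and not as evidence. Total RNA of 8 tumours was measured: 4 had been treated with an Ang2-blocking antibody (anti-Ang2) and 4 with an isotype control antibody (IgG). Ang2 is a secreted ligand that destabilises blood vessels through the endothelial receptor Tie2. All 8 were MT-ret tumours, a melanoma model driven by a Ret transgene under a metallothionein promoter. They had grown from fragments grafted to the ventral flank of mice of the C57BL/6N strain, and both antibodies were started on day 7 and stopped once the primary tumour had been resected. The labels number the tumours one by one, but do not say whether the fragments came from 1 donor tumour, so the error between arrays is the spread between these samples.

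Glycogen synthesis starts on glycogenin, a protein that attaches glucose to itself and so serves as the primer. UDP-glucose pyrophosphorylase makes the activated glucose, glycogen synthase joins it into chains, and the branching enzyme adds side chains. Phosphorylase, switched on by phosphorylase kinase, cuts glucose off again, while targeting subunits bring protein phosphatase 1 to the particle, where it turns synthase on and phosphorylase off. In cultured cells low oxygen is known to raise glycogen stores together with several of these transcripts, and skeletal muscle is a tissue rich in glycogen and its enzymes.

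One array was hybridised per tumour, and the unit is the deposited normalized intensity, on a linear scale unless log2 is stated. The arrays were on one scale, with median intensities from 67.9 to 71.1, and each value of the 9 genes lay above these medians, the lowest being 112. Probes differ in brightness, so intensities are compared between tumours and not between genes. The mean over 10 melanocytic markers was 10.70 to 10.86 in anti-Ang2 tumours, against 10.24 to 10.97 in IgG tumours (log2 units), although Gpr143 among them was dim, at 60.1 and 63.4 in IgG replicates 1 and 2, below the array medians. IgG replicate 1 had the highest list means of skeletal muscle (9.31), macrophage (7.93) and adipocyte (6.59) markers and the lowest of melanocytic markers (10.24) of the 8 arrays, in log2 units. In pieces of tumour, fewer cells of a type and less RNA per cell cannot be told apart. With 4 tumours per group the median standard error (SE) of a log2 difference over all genes was 0.11.

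The synthesis genes had higher mean signals in anti-Ang2 tumours. Gys1, the synthase isoform of muscle and most other tissues, had intensities of 1098, 950.2, 1034 and 812 in anti-Ang2 tumours, against 575, 554, 645 and 642 in IgG tumours (replicates 1 to 4 in each case). The groups did not overlap: the lowest anti-Ang2 tumour, replicate 4, stood above the highest IgG tumour, replicate 3. On the log2 scale Gys1 averaged 9.92 ± 0.19 in anti-Ang2 tumours, against 9.23 ± 0.11 in IgG tumours (SD, n = 4 each), a difference of 0.68 with a 95% interval of 0.44 to 0.92 (fold 1.61; probe set 17477811, chromosome 7). This is the value that chose the group, and with any 1 array left out it stayed between 0.62 and 0.77.

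Ugp2, which makes UDP-glucose, had 2457, 2112, 1912 and 1649 in anti-Ang2 tumours, against 1136, 1412, 1826 and 1544 in IgG tumours. The groups overlapped, because IgG replicate 3 exceeded anti-Ang2 replicate 4. The log2 difference was 0.46 (95% interval 0.12 to 0.81; fold 1.38; chromosome 11). Gbe1, the branching enzyme, had 826, 747, 798 and 597 in anti-Ang2 tumours, against 409, 487, 652 and 659 in IgG tumours. Here anti-Ang2 replicate 4 fell below IgG replicates 3 and 4, while the other 3 anti-Ang2 tumours were above all IgG tumours. Its log2 difference was 0.44 (95% interval 0.08 to 0.81; fold 1.36; chromosome 16), and the annotation text of its probe set is cut short, so it may name further genes. Gyg, glycogenin, had 3440.4, 3059, 2274 and 1605 in anti-Ang2 tumours, against 2079.8, 1718, 1949.8 and 1730.3 in IgG tumours. Its spread was wider in anti-Ang2 tumours, at 0.49 against 0.14 log2 units in IgG tumours (SD), and anti-Ang2 replicate 4 was the lowest of all 8. The log2 difference of 0.42 (95% interval -0.03 to 0.86; chromosome 3) was 0.26 without anti-Ang2 replicate 1 and 0.63 without anti-Ang2 replicate 4.

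**Figure D1:**
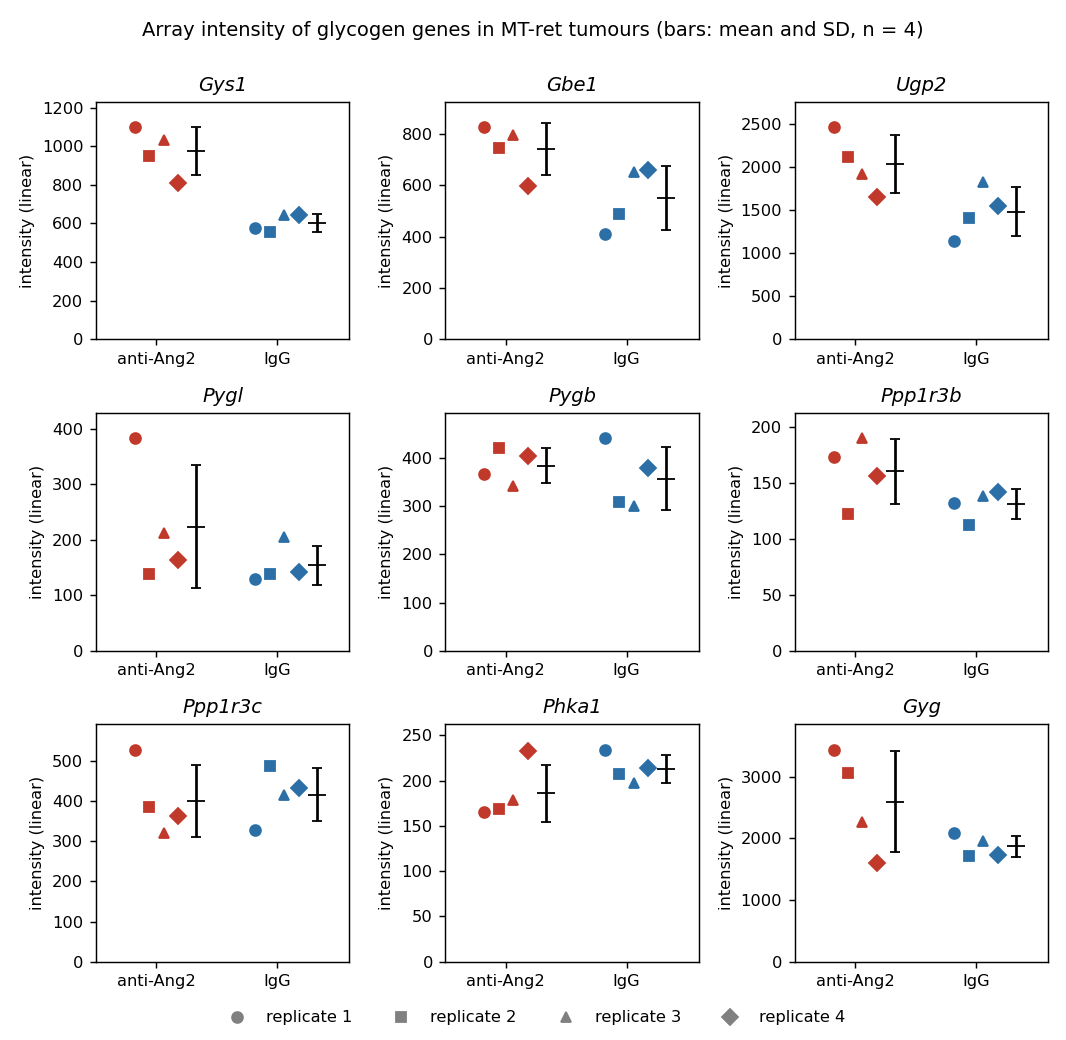
Array intensity (linear, axes from 0) of the 9 glycogen genes in 4 anti-Ang2 and 4 IgG tumours, 1 point per tumour with the replicate number as the symbol; bars are the mean and SD of the linear values. Gys1 is the gene whose groups do not overlap, with 812 as the lowest anti-Ang2 and 645 as the highest IgG value, while the other 8 genes overlap.

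The breakdown genes went less evenly. Pygl, the liver-type phosphorylase that is also found in leukocytes, had 383, 138, 211 and 164 in anti-Ang2 tumours, against 129, 138, 206 and 143 in IgG tumours. One tumour, anti-Ang2 replicate 1, was far above the rest, and the other 3 anti-Ang2 values lay among or just above the IgG values. The log2 difference of 0.45 (95% interval -0.15 to 1.06; chromosome 12) was 0.16 without that tumour. The same tumour also had the highest mean of 10 neutrophil markers, at 6.11 log2 units, where the other 3 anti-Ang2 tumours had 5.73 to 5.76 and the IgG tumours 5.57 to 5.68. The list was dim, as each of these means lay below the median of its own array (6.15 log2 units in anti-Ang2 replicate 1). All 10 neutrophil markers had a positive difference (53.6% of all genes), with 0 past the adjusted threshold in limma and 2 higher at an unadjusted p under 0.05 (4.09% of all genes), and the part of neutrophils in the Pygl value was not tested.

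Pygb, the brain-type phosphorylase, had 368, 422, 343 and 406 in anti-Ang2 tumours, against 442, 308, 301 and 379.9 in IgG tumours. The groups overlapped across most of their range, with a log2 difference of 0.12 (95% interval -0.17 to 0.41; chromosome 2) that was 0.07 without anti-Ang2 replicate 2. Leaving out IgG replicate 1, 2 or 3 in turn gave 0.23, 0.05 or 0.04 for Pygb. Phka1, the muscle-type alpha regulatory subunit of phosphorylase kinase, had 165, 168, 179 and 232 in anti-Ang2 tumours, against 234, 208, 197 and 214 in IgG tumours. Anti-Ang2 replicates 1, 2 and 3 were below every IgG tumour and replicate 4 was just below the highest IgG tumour, giving a log2 difference of -0.21 (95% interval -0.47 to 0.05; chromosome X). Without anti-Ang2 replicate 4 the Phka1 difference was -0.32.

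The 2 phosphatase targeting subunits differed in sign. Ppp1r3b, best known from liver, had 173, 123, 190.2 and 156 in anti-Ang2 tumours, against 133, 112, 139 and 142 in IgG tumours. Its groups overlapped through anti-Ang2 replicate 2, and the log2 difference was 0.28 (95% interval -0.02 to 0.58; chromosome 8). Ppp1r3c, also called protein targeting to glycogen, had 529, 386, 322 and 363 in anti-Ang2 tumours, against 329, 488, 416 and 433 in IgG tumours. Both the highest and the lowest of its 8 values were anti-Ang2 tumours, and the log2 difference of -0.07 (95% interval -0.42 to 0.29; chromosome 19) was 0.03 when anti-Ang2 replicate 3 was left out and 0.01 when IgG replicate 2 was.

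In the fit across all 22836 genes (limma with Benjamini-Hochberg adjustment), 0 of the 9 genes had an adjusted p under 0.05, where the share of all genes that did was 0%. At an unadjusted p under 0.05, limma gave 3 of the 9 as higher (Gys1, Ugp2 and Gbe1; 4.09% of all genes) and 0 as lower (3% of all genes). Groups did not overlap on the higher side for 1 of 9, against 2.28% of all genes, and 7 of 9 had a positive difference, against 53.6% of all genes. The median log2 difference was 0.42 over the 9 genes and 0.01 over all genes. Since the 9 were collected around Gys1 in this same contrast, nothing further is read from these counts. The authors' deposited table gives Gys1 a ratio of mean intensities of 1.61 with an unadjusted p of 0.00564, and Ugp2 a ratio of 1.37 with an unadjusted p of 0.0487. In the authors' deposited table Gbe1 has a ratio of 1.34 with an unadjusted p of 0.0569.

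The other genes of the pathway were divided in direction. Of 30 listed genes 28 were measured, and 17 had a positive and 11 a negative difference, with a median of 0.03 on the log2 scale. Over all genes 53.6% had a positive difference, so this count is near the share of all genes. None of the 28 passed the adjusted threshold in limma, and 3 were higher and 2 lower at an unadjusted p under 0.05 (4.09% and 3% of all genes). The 2 genes not measured, Pgm1 and Gsk3a, share their probe sets with other genes.

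The 3 higher genes at that unadjusted level were Epm2a, Hk2 and G6pc3. Epm2a encodes laforin, a phosphatase that acts on glycogen itself. Its intensities were 265, 203, 239 and 176 in anti-Ang2 tumours, against 124, 170.0, 213 and 162 in IgG tumours, a log2 difference of 0.41 (SE 0.17; limma adjusted p = 0.69). Hk2, hexokinase 2, which traps glucose in the cell, had 479, 431, 559.8 and 360.0 in anti-Ang2 tumours, against 293, 325, 362 and 412 in IgG tumours. Its log2 difference was 0.39 (SE 0.15; limma adjusted p = 0.67), and its groups overlapped through anti-Ang2 replicate 4. G6pc3, a widely expressed glucose-6-phosphatase, differed by 0.36 on the log2 scale (SE 0.13; limma adjusted p = 0.67), with 284, 303, 316 and 344 in anti-Ang2 tumours, against 247, 315, 200.3 and 221 in IgG tumours.

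The pair of lower genes were Ppp1cb and Pygm. Ppp1cb, a catalytic subunit of protein phosphatase 1, had 106, 114, 86.6 and 100.5 in anti-Ang2 tumours, against 119, 125, 122 and 131 in IgG tumours. It was the 1 gene of the 28 whose groups did not overlap (1.46% of all genes on the lower side), with a log2 difference of -0.30 (SE 0.10; limma adjusted p = 0.636). Ppp1cc, another catalytic subunit, stood at 0.16 (SE 0.10), and the phosphorylase kinase subunits Phka2 and Phkb stood at -0.20 (SE 0.10) and -0.14 (SE 0.09). The remaining measured subunits of that kinase were Phkg1 (-0.07, SE 0.16) and Phkg2 (-0.02, SE 0.08). The remaining listed catalytic subunit was Ppp1ca (-0.08, SE 0.10). Phkg1, Phkg2 and Ppp1ca were named after their values were seen, and each difference was smaller in size than its SE. The Ppp1cc difference was 0.08 with IgG replicate 1 left out, and that of Phkb was -0.09 with anti-Ang2 replicate 1 left out. None of the differences of these 4 kinase subunits, of Phka1, of Ppp1cc or of Ppp1ca had an interval clear of 0.

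**Figure D2:**
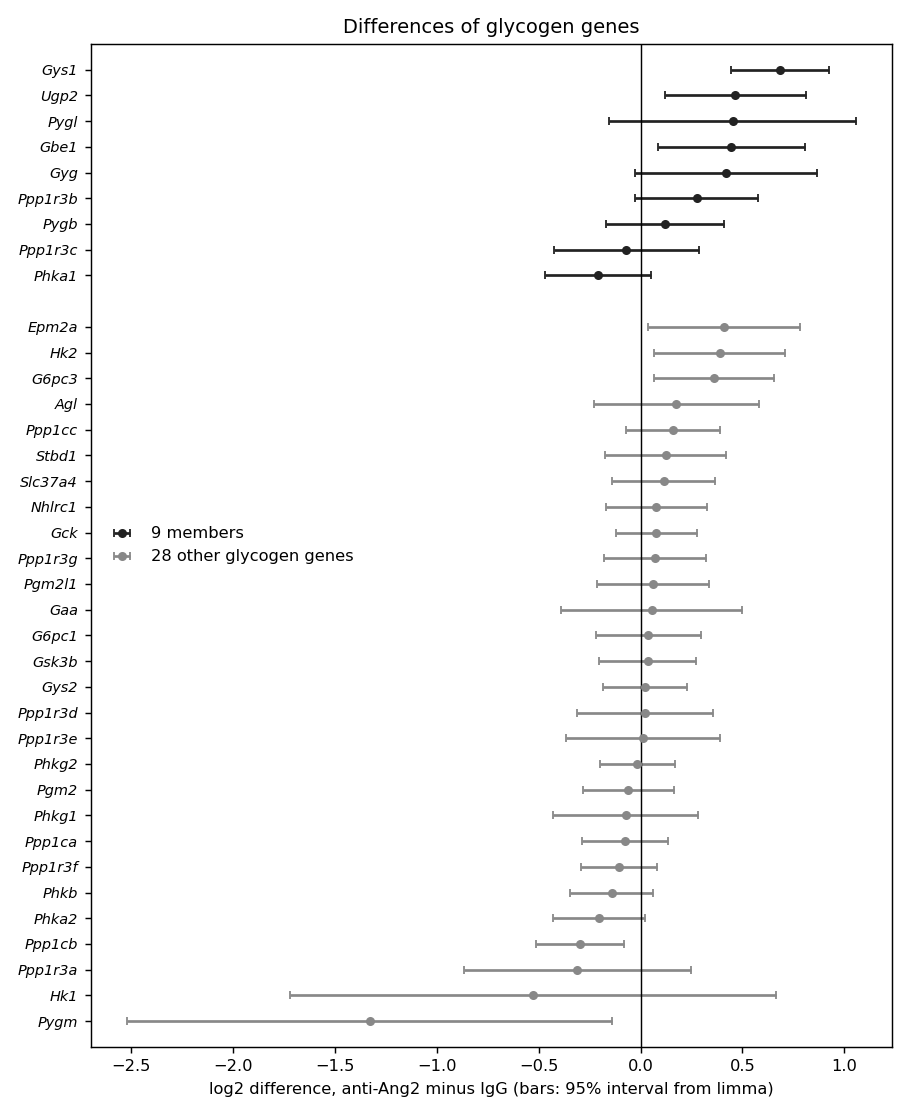
Log2 difference of anti-Ang2 minus IgG tumours for the 9 genes (dark, top) and the 28 other measured glycogen genes (grey, below), each with its 95% interval from limma. The dark points reach from -0.21 for Phka1 to 0.68 for Gys1, and Pygm at -1.33 has the largest difference in size of the 37 genes and a wide interval.

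Pygm, the muscle phosphorylase, was brightest in the tumours with the most skeletal muscle signal. It had 46.9, 114, 57.7 and 44.3 in anti-Ang2 tumours, against 501, 143, 56.7 and 134 in IgG tumours. The mean of 16 skeletal muscle markers was 6.08, 7.25, 5.90 and 5.82 log2 units in the same anti-Ang2 tumours, against 9.31, 7.79, 6.06 and 7.14 in IgG tumours. In both measures IgG replicate 1 was the highest tumour and anti-Ang2 replicate 2 the highest of its group. The log2 difference of Pygm was -1.33 (SE 0.54; limma adjusted p = 0.69), -0.76 without IgG replicate 1 and -0.11 with the muscle list mean as a covariate. All 16 muscle markers had a negative difference, as did 10607 of all 22836 genes, and 0 passed in limma (9 lower at an unadjusted p under 0.05, against 3% of all genes). The markers included Acta1, skeletal actin (-2.42, SE 0.90), and the fast myosins Myh1 (-1.32, SE 0.49) and Myh2 (-1.08, SE 0.39). Without IgG replicate 1 the differences were -0.80 for Myh1 and -0.70 for Myh2. The Acta1 difference ranged from -3.21 to -1.74 with 1 array left out. Pygm, Myh1 and Myh2 lay below the array medians in anti-Ang2 replicates 1, 3 and 4 and in IgG replicate 3. Their differences were thus measured against dim values.

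Gys1 was not ordered in this way: in IgG replicate 1, the tumour richest in muscle markers, its intensity of 575 was the second lowest of the 8. Its log2 difference was 0.62 with the muscle list mean as a covariate and 0.66 without IgG replicate 1. The covariate moved several other members further, to 0.22 for Gbe1, 0.28 for Ugp2, 0.13 for Pygl, 0.15 for Ppp1r3b, 0.31 for Pygb and -0.17 for Ppp1r3c, and Epm2a and Hk2 to 0.16 and 0.26. It also brought Ppp1cc to 0.09 and Phkb to -0.07. The Gyg difference was 0.56 and the Phka1 difference -0.18 in that fit, and 0 of the 9 passed in it. The muscle list mean itself averaged 6.26 log2 units in anti-Ang2 tumours and 7.57 in IgG tumours. The covariate therefore cannot separate muscle content from treatment. Any part of muscle content in the values of Pygm, Gys1 or the other genes was not tested.

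**Figure D3:**
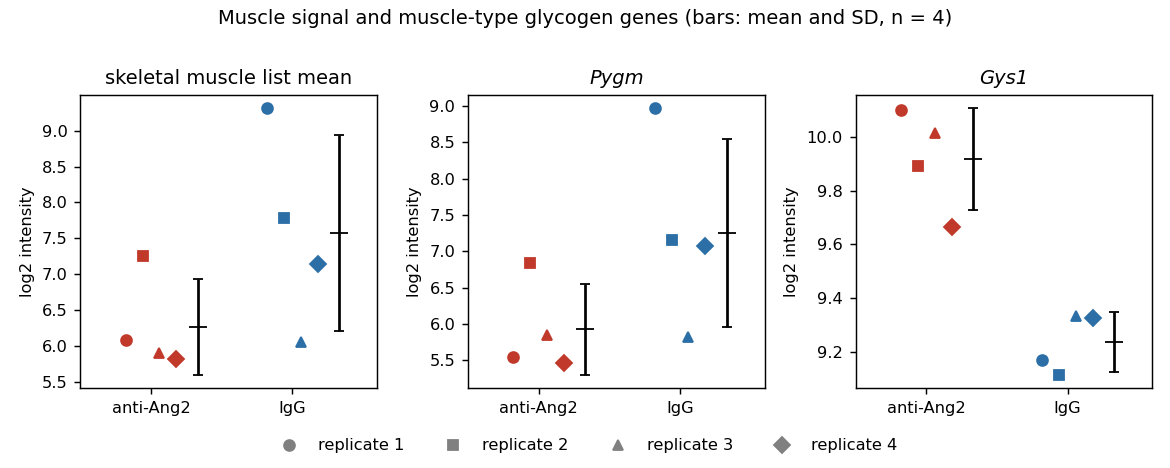
Log2 intensity of the 16-gene skeletal muscle list mean, of Pygm and of Gys1 in each tumour (anti-Ang2 left, IgG right; bars are mean and SD, n = 4; axes do not start at 0). The muscle list mean and Pygm are highest in IgG replicate 1, where Gys1 is at the low end of its range.

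Transcripts of the hypoxia response, a list of 19 measured genes that holds none of the 9, stood higher in anti-Ang2 tumours as well. The list mean was 9.58, 9.27, 9.51 and 9.17 log2 units in anti-Ang2 tumours, against 8.58, 8.96, 9.10 and 9.07 in IgG tumours. All 19 genes had a positive difference (53.6% of all genes), with a median of 0.45, and 0 passed in limma while 11 were higher at an unadjusted p under 0.05 (4.09% of all genes). The list was chosen with earlier results of these data known, so these counts are a description and not independent evidence. The largest test statistics belonged to Kdm3a, a histone demethylase (0.54, SE 0.11), P4ha2, which encodes a subunit of the enzyme that hydroxylates collagen prolines (0.58, SE 0.14), and Ndrg1, induced by several stresses (1.19, SE 0.29). With the muscle list mean as a covariate the differences were 0.40 for Kdm3a, 0.46 for P4ha2 and 0.60 for Ndrg1. This list and the synthesis genes both had higher means in anti-Ang2 tumours, and any part of hypoxia in the values of those genes was not tested.

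Each gene was also set against the hypoxia and muscle lists after every value had been centred on its group mean. The p-value that chose Gys1 depends on its spread within groups, but not on these lists. These were 18 relations over 8 tumours, tested two-sided by exact permutation within groups, where 0.00174 is the smallest p of the 576 arrangements. Gbe1 had the highest Pearson's r with the hypoxia list over all 8 tumours, 0.907 (exact permutation p = 0.00347), while its Spearman's rho of 0.881 (exact permutation p = 0.00694) was equalled by Ugp2 and Pygl. After adjustment over the 18 relations both p-values were 0.0625, above the threshold, and r was 0.653 without anti-Ang2 replicate 4 and IgG replicate 1, the 2 tumours farthest out on the list.

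Ugp2 had r = 0.847 with the hypoxia list (exact permutation p = 0.0243, adjusted 0.146) and rho = 0.881 (exact permutation p = 0.0139, adjusted 0.0833), and its r was 0.478 without those 2 tumours, so the relation rested largely on them. Gys1 had r = 0.764 (exact permutation p = 0.0208, adjusted 0.146) and rho = 0.857 (exact permutation p = 0.0191, adjusted 0.0859), and its r was 0.890 without them. Anti-Ang2 replicate 4, the lowest anti-Ang2 tumour for Gys1, Gbe1, Ugp2 and Gyg, was also the lowest of its group on the hypoxia list. IgG replicate 1, the lowest IgG tumour on that list, was the lowest for Gbe1 and Ugp2 but not for Gys1. Among IgG tumours the muscle list mean ran in the reverse order of the hypoxia list mean, from 9.31 log2 units in replicate 1 to 6.06 in replicate 3. Among anti-Ang2 tumours replicate 4 was the lowest on both lists. The separate parts of hypoxia and of muscle content in these coefficients were not tested.

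Pygl also had a positive coefficient with the hypoxia list (r = 0.696, exact permutation p = 0.0521; rho = 0.881, exact permutation p = 0.00694), whereas Pygb (r = -0.759, exact permutation p = 0.0434; rho = -0.595, exact permutation p = 0.160) and Phka1 (r = -0.694, exact permutation p = 0.0365; rho = -0.667, exact permutation p = 0.0816) had negative ones. Without the same 2 tumours r was 0.888 for Pygl and -0.409 for Pygb, and it was -0.068 for Phka1, whose coefficient thus rested on them. Ppp1r3b had r = 0.420 with all 8 tumours (exact permutation p = 0.3125; rho = 0.619, exact permutation p = 0.141) and 0.917 without them, so that Ppp1r3b, Gys1 and Pygl then stood above Gbe1. None of the 18 relations passed after adjustment. With the muscle list, r reached from -0.655 for Gbe1 to 0.738 for Pygb (-0.438 and 0.158 without the 2 tumours farthest out on that list), and Gys1 had r = -0.316 (exact permutation p = 0.372; rho = -0.238, exact permutation p = 0.576).

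**Figure D4:**
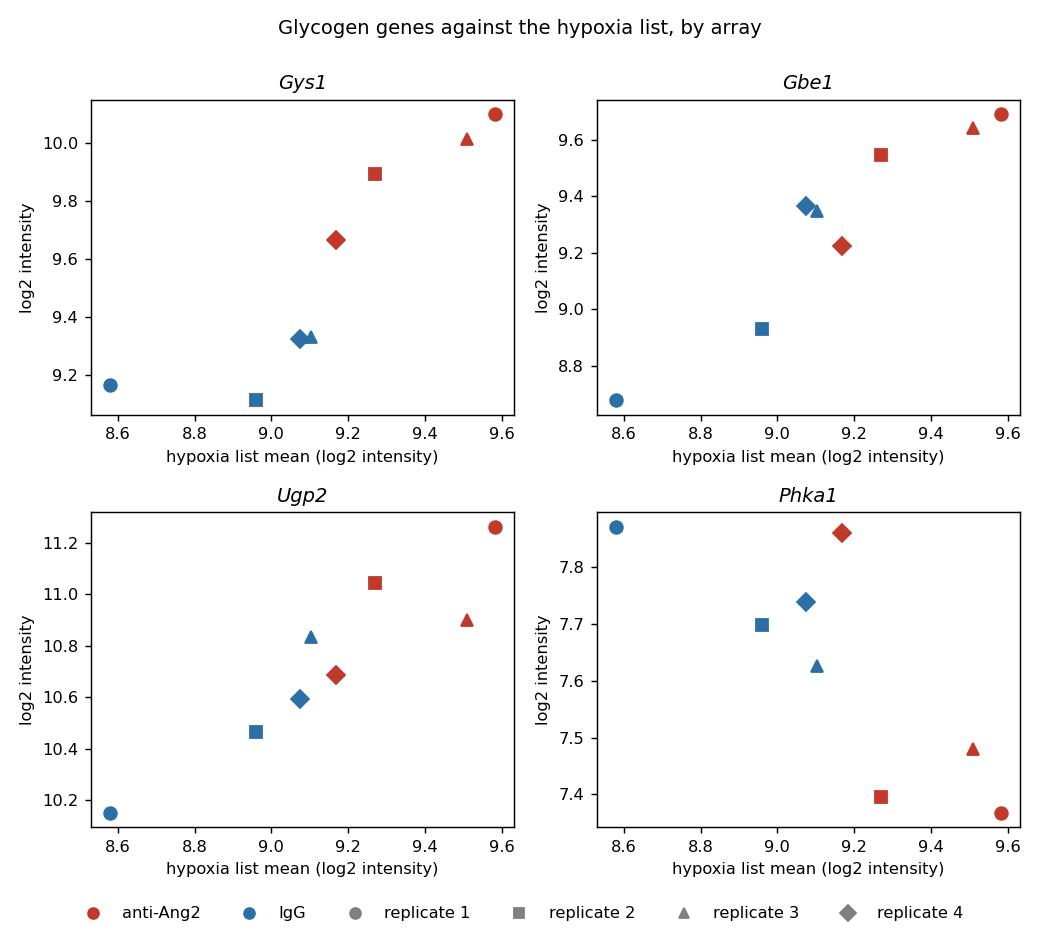
Log2 intensity of Gys1, Gbe1, Ugp2 and Phka1 (vertical axes) against the mean log2 intensity of the 19 hypoxia genes (horizontal axes), 1 point per tumour, with colour for the group and symbol for the replicate number. Gbe1, Ugp2 and Gys1 mostly climb along the list within groups, Gys1 with a gap between the groups, and the negative r of Phka1 rests on anti-Ang2 replicate 4 and IgG replicate 1 (-0.068 without them).

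Among themselves, the 9 genes form 36 pairs, of which 22 had a positive r within groups, with a median of 0.325. The closest pair was Gbe1 and Ugp2 (r = 0.878, exact permutation p = 0.0139; rho = 0.857, exact permutation p = 0.0226) and the most opposed was Ugp2 and Phka1 (r = -0.819, exact permutation p = 0.00521; rho = -0.714, exact permutation p = 0.0347). None of the 36 passed after adjustment, the smallest adjusted p being 0.167. Gys1 ran with Gbe1 (r = 0.826, exact permutation p = 0.0139; rho = 0.762, exact permutation p = 0.0347), and 368 other genes on the array followed Gys1 at least as closely as Gbe1 did.

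Out of 22835 genes, the 5 most like Gys1 by Pearson's r over the 8 group-centred values were Jph3 (0.988), A430078I02Rik (0.985), P4ha2 (0.982), Pkdrej (0.972) and Samd4 (0.968). They are the extremes of many coefficients over 8 tumours and carry no test. P4ha2, which belongs to the hypoxia list, had 251, 199, 226 and 166 in anti-Ang2 tumours, against 127, 124, 161 and 147 in IgG tumours. Its order of tumours within each group was the same as that of Gys1, as was that of A430078I02Rik. Jph3, A430078I02Rik and Pkdrej were dim, their highest value being 77.8, and were not among the genes left by the dim-gene filter. The log2 differences between groups of the other four were small, at -0.09 for Jph3, 0.17 for A430078I02Rik, -0.07 for Pkdrej and 0.07 for Samd4, and that of A430078I02Rik was 0.04 with anti-Ang2 replicate 1 left out.

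The start regions are shown because the genes were set against the hypoxia list, although no such relation passed after adjustment. The windows run from 250 bases before to 50 bases after a RefSeq transcript start (GRCm38.p6), read 5′ to 3′ along the gene, and 8 of the 9 genes had 1 or more. They were searched on both strands for the 5-letter cores of the hypoxia response element, ACGTG and GCGTG, which are in capitals below. The windows are those of the 3 synthesis genes with the largest differences, at chr7:45434589-45434888 (plus strand), chr16:70313699-70313998 (plus strand) and chr11:21371218-21371517 (minus strand), and of Ppp1r3c at chr19:36736555-36736854 (minus strand). Ppp1r3c had the smallest difference in size of the 9 genes (-0.07), and its window holds the most ACGTG matches (3). The printed windows are thus not representative of the 9 genes.
Gys1: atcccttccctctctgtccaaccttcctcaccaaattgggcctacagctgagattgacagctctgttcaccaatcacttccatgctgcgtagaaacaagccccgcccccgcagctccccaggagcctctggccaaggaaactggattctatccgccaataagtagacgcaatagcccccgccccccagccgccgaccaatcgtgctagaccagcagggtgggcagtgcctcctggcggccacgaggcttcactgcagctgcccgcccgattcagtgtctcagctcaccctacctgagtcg
Gbe1: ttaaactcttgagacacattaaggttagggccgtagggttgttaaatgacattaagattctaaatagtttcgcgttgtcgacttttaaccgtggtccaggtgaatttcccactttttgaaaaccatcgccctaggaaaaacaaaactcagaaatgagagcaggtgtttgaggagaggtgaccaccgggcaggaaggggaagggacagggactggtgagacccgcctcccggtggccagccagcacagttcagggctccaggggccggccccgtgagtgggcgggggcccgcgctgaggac
Ugp2: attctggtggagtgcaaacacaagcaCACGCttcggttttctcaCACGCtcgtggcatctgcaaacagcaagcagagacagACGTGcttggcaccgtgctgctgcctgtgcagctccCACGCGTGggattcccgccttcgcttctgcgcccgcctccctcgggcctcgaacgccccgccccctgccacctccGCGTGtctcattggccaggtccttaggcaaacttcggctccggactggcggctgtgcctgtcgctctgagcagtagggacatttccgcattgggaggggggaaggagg
Ppp1r3c: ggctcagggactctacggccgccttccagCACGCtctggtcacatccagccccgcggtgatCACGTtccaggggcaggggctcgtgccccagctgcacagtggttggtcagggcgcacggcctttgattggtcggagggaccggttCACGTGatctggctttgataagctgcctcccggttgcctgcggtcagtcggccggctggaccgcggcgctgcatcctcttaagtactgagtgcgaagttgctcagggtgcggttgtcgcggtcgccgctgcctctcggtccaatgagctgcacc
Neither core is in the Gys1 or the Gbe1 window. The Ugp2 window holds 6 matches, 1 of ACGTG and 5 of GCGTG, of which 2 on opposite strands overlap, while a second Ugp2 window at chr11:21370580-21370879 holds none. The Ppp1r3c window holds 4 matches, and 2 of them are the strands of the palindrome CACGTG, the E-box that the melanocyte factor MITF can bind. The Gyg window, not printed here, also holds CACGTG. Pygl, Pygb, Phka1 and Gyg had at least 1 match each, so 6 of the 9 windows did, where 43.8% of all 32851 RefSeq windows of this length hold 1 of the cores (19.6% ACGTG, 32.4% GCGTG and 7.15% CACGTG). A match is a string of letters and not a shown binding site, and longer distances from the start were not searched.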

How the data were processed

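Biotin-labelled cDNA from 250 ng of tumour RNA per sample was hybridised to Affymetrix whole-transcript arrays, per the labels' protocols. For every probe set the deposited tables hold 1 normalized intensity per array, on a linear scale. How background, summarization and normalization were done is not given in the sources used here. The authors' deposited table also holds a ratio (fold) of group mean intensities and an unadjusted p-value per probe set.

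Of 24648 probe sets, 24643 had all 8 values, 22840 had 1 gene symbol, and 22836 genes were fitted. For 418 probe sets no gene name was used here. The annotation text of some probe sets is cut short and may name further genes. Among them are those of Gbe1, P4ha2, Ndrg1, Ppp1cc, Phkb and Phka2. A RefSeq table, matched by Entrez ID for 21835 genes, gave current symbols. Log2 intensities were compared with limma 3.58.1 in R 4.3.3, anti-Ang2 minus IgG, with no covariate and Benjamini-Hochberg adjustment at 0.05. The fit had 6 residual and 4.86 prior degrees of freedom. Adjusted p-values in the text are limma's unless called exact permutation p-values. The code was tested on simulated data.

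The 9 genes, the lists and the tests were chosen with earlier results of these data known. Named genes are the 9, the 8 of the wider glycogen list with the largest moderated t, up to 3 of each marker list, and the 5 most like Gys1. Alternatives were quantile normalization, median centring, a dim-gene filter, all probe sets, trend and robust eBayes, array weights, a replicate number block, a muscle covariate, the authors' p-values and each array left out.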

Additional observations from a re-analysis of the deposited data

Results flagged for a closer look

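The 8 results of the wider glycogen list with the largest moderated t, the 9 genes and the 7 list means were examined for a tumour standing apart within its group of 4, in 48 groups in all, where chance alone sets about 1 in 20 groups apart. The neutrophil list mean of anti-Ang2 replicate 1 (6.11 log2 units) stood apart from the other anti-Ang2 tumours, with 92.2% of the group's range between it and the next. This neutrophil mean was still below the median of its array. The macrophage list mean of IgG replicate 1 (7.93 log2 units) stood apart from the other IgG tumours, with 88.8% of the range. None of the 9 glycogen genes had such a tumour.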

How the results depend on the processing

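With 4 arrays per group the precision is limited, and no glycogen gene passed the adjusted threshold in any of the 17 alternatives. The count over all genes stayed at 0 except without anti-Ang2 replicate 2, where it was 1 (range 0 to 1 over the arrays left out). That gene was Prnd, named after its values were seen. Of the 9 genes, 8 kept the sign of their difference throughout. Ppp1r3c had a log2 difference of 0.026 when anti-Ang2 replicate 3 was left out and 0.012 when IgG replicate 2 was (range -0.21 to 0.026), and Pkdrej ranged from -0.12 to 0.0045. Within groups, the r of Gyg with the hypoxia list ranged from -0.28 to 0.62 with an array left out. With the muscle list, Ppp1r3c ranged from -0.43 to 0.25 and Phka1 from -0.23 to 0.71. Leaving out the 2 farthest arrays gave r = 0.39 for Ppp1r3c and -0.027 for Gyg with the muscle list. The cause of these reversals was not tested. The replicate numbers did not pair the tumours (correlations of deviations from -0.05 to 0.08), and with the replicate block 0 genes passed and Gys1 differed by 0.68.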
